A study of Mus musculus with 3 samples.

Results

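Receptor tyrosine kinases outside the KIT and EPH groups were examined in untreated melan-a cells, an immortalized line of mouse melanocytes. The receptors were chosen by gene symbol and all 34 were found among the 22698 Ensembl genes of the deposited files. RNA-seq values were available for 3 replicates, labelled 1, 3 and 4, of a single condition. According to the labels the cells have a C57BL/6J strain background and come from mice without the Ink4a-ARF locus. They were kept in RPMI medium with 10% fetal bovine serum, 200 nM of the phorbol ester TPA, which activates protein kinase C, and 200 pM of cholera toxin, which raises cyclic AMP. The files held FPKM values (read counts divided by gene length and by a library size that the authors had scaled). With 1 condition there was no comparison between groups of samples, and the levels are given with their SD over replicates. The labels do not say whether the replicates came from separately grown cultures, so the spread may be partly technical.

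Receptor tyrosine kinases are single-pass membrane proteins with a ligand-binding part outside the cell and a kinase inside it. Binding of a ligand brings receptor molecules together, the kinases phosphorylate each other, and adaptor proteins attach to the phosphorylated tails and pass the signal to the RAS-ERK and PI3K-AKT pathways. Subfamilies differ in their ligands, such as hepatocyte growth factor (HGF) for MET, neuregulins and EGF-like ligands for the ERBB receptors, and GAS6 or protein S for AXL, TYRO3 and MERTK. In melanocytes MET signalling is known for its roles in survival and movement, and AXL is known as a marker of melanoma cells with low differentiation.

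The 3 libraries corresponded to 46900000 to 66200000 reads after the authors' scaling, as estimated from the whole-read steps of short genes. All 9 melanocyte markers were above 1 FPKM in every replicate, with means from 20.8 FPKM for *Mc1r* to 3144 FPKM for *Tyrp1*. Of the lists for other cell types, 5 keratinocyte markers summed to 0.38 to 0.72 FPKM per replicate with *Krt1* at 0, and 4 endothelial markers to 0.02 to 0.04 FPKM with *Emcn* at 0. The 5 fibroblast markers summed to 1.5 to 1.89 FPKM with *Lum* at 0, and the 4 blood and macrophage markers to 0.88 to 1.73 FPKM with *Ptprc* at 0. Most of the fibroblast sum came from *Col1a1*, at 1.51, 1.77 and 1.33 FPKM, so 1 of these 5 markers was above 1 FPKM in every replicate. *Cd68*, at 1.2, 0.76 and 1.6 FPKM, made up most of the blood and macrophage sum, and *Krt10*, at 0.51, 0.29 and 0.67 FPKM, most of the keratinocyte sum. *Cdkn2a*, the gene of the Ink4a-ARF locus, was at 19.24, 16.49 and 24.32 FPKM in replicates 1, 3 and 4. The labels do not say which exons are missing in the cells, and a value summed over the gene does not check them.

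A small set of receptors carried the signal. Of the 34 receptors, 9 had at least 1 FPKM in every replicate (26.5%), against 44.1% of all genes in the files and 44.8% of the protein-coding ones. Another 9 were listed at 0 in every replicate (26.5%, against 31.4% of all genes and 30.3% of the protein-coding ones). The remaining 16 were above 0 in at least 1 replicate, 4 with a mean of 0.1 FPKM or more (9.41% of all genes fell in this class) and 12 with a lower mean (15.0% of all genes). The median of the 34 mean levels was 0.0317 FPKM, and that of all genes was 0.277 FPKM. The members were picked as a known family, so these shares describe the list and were not tested. Because RNA was taken from bulk cultures, expression in few cells and low expression in all cells cannot be told apart.

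*Axl*, the receptor for GAS6 and protein S, had by far the highest level. *Axl* was at 166.24, 196.19 and 125.27 FPKM in replicates 1, 3 and 4 (163 ± 35.6 FPKM, SD, n = 3), at rank 318 of all genes. *Axl* alone made up 50.75% to 57.15% of the summed FPKM of the 34 receptors. The collagen receptor *Ddr1* followed with 59, 67.08 and 39.24 FPKM (55.1 ± 14.3), and *Met*, the receptor of HGF, with 43.03, 36.64 and 46.18 FPKM (42 ± 4.86). Together these 3 genes accounted for 86.39% ± 1.01 of the receptor sum (SD, n = 3), and the 9 expressed receptors for 99.2% to 99.39%. The sum itself was 310.2, 343.3 and 246.9 FPKM.

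**Figure D1:**
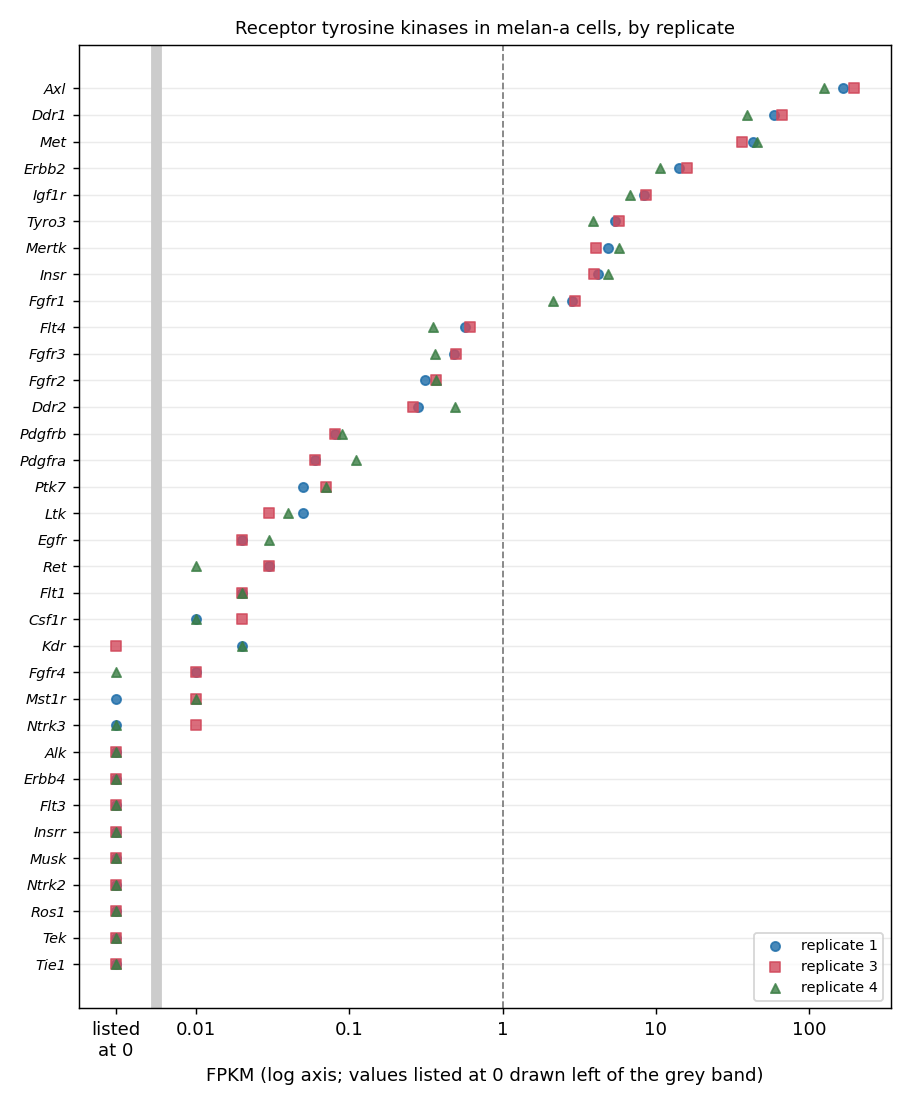
FPKM of each of the 34 receptor genes in the 3 replicates, on a log axis with values of 0 drawn left of the grey band and the dashed line at 1 FPKM. *Axl* stands above all others in each replicate, 9 genes lie right of the dashed line, no gene has a value between 0.61 and 2.14 FPKM, and 9 genes are at 0 throughout.

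The promoter windows of the leading receptors and of a lower relative of each were compared for CpG dinucleotides. These are the sites of DNA methylation in vertebrate promoters. RefSeq windows of build GRCm38.p6 were at hand for 27 of the 34 receptors, and the 250 bases before the annotated start are printed for 6 of them with each CpG in capitals. *Axl* and *Tyro3*, *Ddr1* and *Ddr2*, and *Met* and *Mst1r* are pairs from the same subfamilies in which the first gene had the higher level. Where RefSeq gives several starts, the farthest upstream was used, which was the case for *Ddr1* (4 windows), *Mst1r* (2 windows) and *Fgfr3* (2 windows, not printed). The other windows of these genes are not described.
*Axl*, chr7:25788734-25788983, minus strand: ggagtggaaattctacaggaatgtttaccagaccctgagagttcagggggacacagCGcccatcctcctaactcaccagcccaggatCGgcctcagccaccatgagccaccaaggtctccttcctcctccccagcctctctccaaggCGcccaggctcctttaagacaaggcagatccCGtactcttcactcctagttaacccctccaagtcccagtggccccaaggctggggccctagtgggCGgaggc
*Tyro3*, chr2:119799264-119799513, plus strand: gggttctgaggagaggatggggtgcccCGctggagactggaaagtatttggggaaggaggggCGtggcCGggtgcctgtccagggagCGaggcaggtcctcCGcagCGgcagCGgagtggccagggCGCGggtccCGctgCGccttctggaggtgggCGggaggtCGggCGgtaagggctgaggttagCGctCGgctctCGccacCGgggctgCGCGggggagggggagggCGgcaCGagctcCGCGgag
*Ddr1*, chr17:35704600-35704849, minus strand: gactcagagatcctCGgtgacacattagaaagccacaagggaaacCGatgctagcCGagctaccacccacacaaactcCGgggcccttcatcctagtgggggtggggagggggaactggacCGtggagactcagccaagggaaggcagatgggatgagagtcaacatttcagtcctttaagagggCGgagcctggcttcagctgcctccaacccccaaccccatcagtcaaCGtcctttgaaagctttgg
*Ddr2*, chr1:170088945-170089194, minus strand: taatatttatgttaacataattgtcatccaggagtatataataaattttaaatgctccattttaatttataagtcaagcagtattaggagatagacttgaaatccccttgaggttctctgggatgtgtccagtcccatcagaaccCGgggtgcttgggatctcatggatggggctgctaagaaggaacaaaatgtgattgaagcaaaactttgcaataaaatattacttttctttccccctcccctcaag
*Met*, chr6:17463707-17463956, plus strand: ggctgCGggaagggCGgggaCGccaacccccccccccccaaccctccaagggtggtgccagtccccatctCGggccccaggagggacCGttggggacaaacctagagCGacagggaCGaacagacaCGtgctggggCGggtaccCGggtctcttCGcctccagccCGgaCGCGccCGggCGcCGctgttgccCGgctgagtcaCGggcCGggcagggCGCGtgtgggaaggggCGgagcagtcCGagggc
*Mst1r*, chr9:107906639-107906888, plus strand: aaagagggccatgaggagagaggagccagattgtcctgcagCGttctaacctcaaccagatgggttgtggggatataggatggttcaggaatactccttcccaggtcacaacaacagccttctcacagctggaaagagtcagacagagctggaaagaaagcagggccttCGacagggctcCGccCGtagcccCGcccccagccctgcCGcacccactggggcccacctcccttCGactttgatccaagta

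The *Axl* window held 5 CpG and the *Ddr1* window 7, near the median of 6 over 32851 RefSeq windows of this length. For *Met* and *Tyro3* 24 CpG each were counted, above the upper quartile of 16. Of the 3 relatives with the lower level, *Mst1r* (7) and *Ddr2* (1) had fewer CpG than *Met* and *Ddr1*, and *Tyro3* (24) had more than *Axl*. *Mertk*, of the same subfamily as *Axl* and also lower in level, had 7 CpG (window not printed), so this comparison depends on the relative chosen. Over the 7 expressed receptors with a window the count ran from 5 to 42 with a median of 16. It ran from 1 to 19 with a median of 9 over the 4 unexpressed receptors with a mean of 0.1 FPKM or more, from 4 to 23 with a median of 14.5 over 8 with a lower mean above 0, and from 2 to 23 with a median of 9.5 over 8 receptors at 0. The counts of all these groups overlapped, and *Alk*, listed at 0 in every replicate, had 23 CpG. For 6 of the 27 windows, *Axl* among them, the bases after the start were not found in the transcripts of the older annotation used here, so the start used in these cells is less sure.

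**Figure D2:**
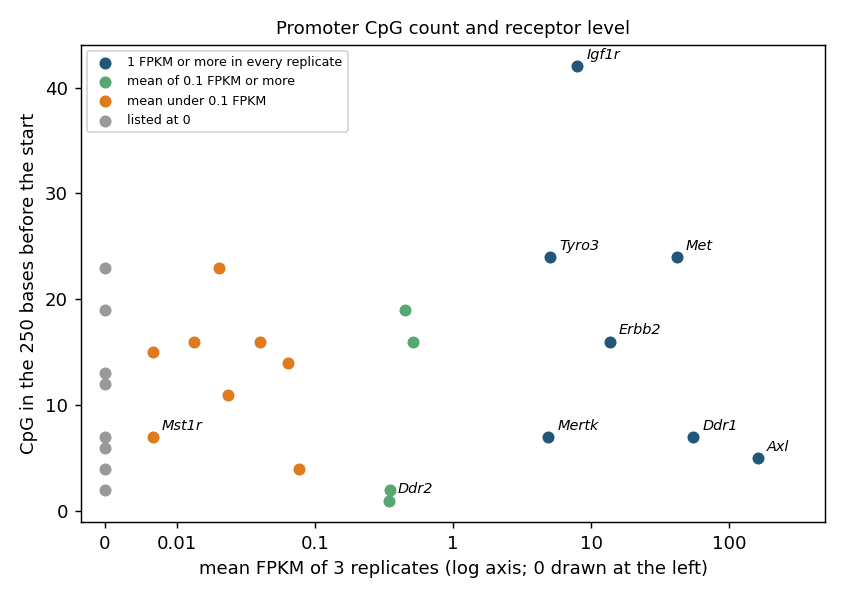
Number of CpG in the 250 bases before the start (y axis) against the mean FPKM over 3 replicates (x axis, log scale, with 0 at the left), for 27 receptor genes coloured by level. *Axl* and *Ddr1*, with the highest levels, have 5 and 7 CpG, and genes at 0 range from 2 to 23.

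The windows were also searched for the letters GCCNNNGGC, the palindromic core bound by TFAP2 proteins, and for the E-boxes CATGTG (on either strand, so also its reverse complement) and CACGTG, which MITF can bind. GCCNNNGGC and CACGTG read the same on either strand, and no receptor window held more than 1 of the 3 motifs. Of the 27 receptors, 6 had GCCNNNGGC, 1 had CATGTG and 1 had CACGTG. Among all windows the shares were 13.7%, 12.3% and 6.02%. Of the expressed receptors only *Mertk* had GCCNNNGGC, and only *Met* had CACGTG. The other holders of GCCNNNGGC were *Flt4*, *Flt1*, *Alk*, *Musk* and *Tie1*, 3 of them at 0. A match describes these letters in this window and does not show binding.

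All 3 TAM receptors, which bind the vitamin K-dependent proteins GAS6 and protein S and clear apoptotic cells, were expressed. *Tyro3* was at 5.42, 5.79 and 3.92 FPKM (5.04 ± 0.99) and *Mertk* at 4.88, 4.05 and 5.74 FPKM (4.89 ± 0.845). *Axl* was 30.67 to 33.88 times *Tyro3* and 21.82 to 48.44 times *Mertk*. It contributed 92.84% to 95.22% of the summed TAM level. *Tyro3* and *Mertk* were not apart, since *Tyro3* was higher in replicates 1 and 3 and *Mertk* in replicate 4. Both ligands were expressed as well. *Pros1*, which encodes protein S, was at 15.1, 10.94 and 18.16 FPKM, and *Gas6* at 5.05, 5.72 and 4.35 FPKM, with *Pros1* higher in each replicate.

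The discoidin domain receptors, which are activated by collagen, differed strongly from each other. *Ddr1* was 80.08 to 258 times *Ddr2*, which was at 0.28, 0.26 and 0.49 FPKM. Among the 4 collagen genes listed as ligands, *Col4a1*, a basement membrane collagen, was at 257.63, 264.39 and 206 FPKM, and *Col1a1*, of fibrillar collagen, at 1.51, 1.77 and 1.33 FPKM. *Col3a1* and *Col1a2*, also of fibrillar collagens, were at 0.107 and 0.04 FPKM on average.

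In the HGF receptor family, *Met* was expressed and *Mst1r*, the receptor of macrophage-stimulating protein, was at 0, 0.01 and 0.01 FPKM. At the estimated depth this came to 5.3 reads over the 3 libraries, and the mean lay below the 0.0136 FPKM that 3 reads give in the shallowest library. *Hgf*, the ligand of MET, was listed at 0 in every replicate, and *Mst1*, the ligand of the *Mst1r* product, at 0.02, 0.01 and 0.08 FPKM. *Furin*, whose product cleaves the MET precursor into its mature form, was at 28.1 ± 7.89 FPKM, and the related convertase *Pcsk6* at 34.3 ± 7.23 FPKM (SD, n = 3).

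Of the 3 EGF receptor family genes examined, *Egfr*, *Erbb2* and *Erbb4*, 1 was expressed. This was *Erbb2*, which has no known ligand of its own and acts as a dimer partner. *Erbb3*, also of this family, was not on the list of receptors, so not all possible partners were covered. *Erbb2* was at 14.29, 15.92 and 10.65 FPKM (13.6 ± 2.7). *Egfr* was at 0.02, 0.02 and 0.03 FPKM, an estimated 45.3 reads over the 3 libraries, which is low but above the floor of 3 reads. *Erbb4*, a neuregulin receptor, was at 0 throughout. Of 11 listed ligands, 2 were expressed, both of them ligands of EGFR. *Hbegf* had 8.37, 9.2 and 8.2 FPKM and *Tgfa* 5.54, 5.9 and 4.75 FPKM.

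The insulin receptor family had 2 expressed members. *Igf1r*, the receptor for IGF1 and IGF2, was at 8.35, 8.61 and 6.83 FPKM (7.93 ± 0.961). *Insr*, the insulin receptor, was at 4.2, 3.94 and 4.91 FPKM (4.35 ± 0.502) and lay below *Igf1r* in each replicate, by 1.391 to 2.185 times. *Insrr*, an insulin receptor-related receptor that senses alkaline pH, was at 0 throughout. None of the 4 ligand genes reached 1 FPKM. *Igf2* had 0.03 FPKM at most and *Igf1* 0.01 FPKM, and *Ins1* and *Ins2* were at 0.

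Among the FGF receptors *Fgfr1* led with 2.84, 2.97 and 2.14 FPKM (2.65 ± 0.446), which came to between 1123 and 1229 reads in each library. *Fgfr3* was at 0.48, 0.5 and 0.36 FPKM and *Fgfr2* at 0.31, 0.37 and 0.37 FPKM, so that *Fgfr1* was 5.917 to 5.944 times *Fgfr3* and 5.784 to 9.161 times *Fgfr2*. *Fgfr4* had 0.01, 0.01 and 0 FPKM, under the value of 3 reads. One FGF ligand of 18 was expressed. *Fgf1*, which binds all FGF receptors, was at 60.6, 57.77 and 68.1 FPKM, and 6 of the other FGF genes were at 0. With the longest transcript as the gene length, the means would be 4.283 FPKM for *Fgfr1*, 0.728 FPKM for *Fgfr3* and 0.6161 FPKM for *Fgfr2*. A second identifier with the *Fgfr1* symbol, at 0 in every replicate, covered 9.44% of the *Fgfr1* exon bases, and exons of another gene on the same strand covered 4.03% of those of *Fgfr2*. Reads in such stretches can be left unassigned.

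For several subfamilies the ligands were expressed while the receptors were not. *Pdgfra* and *Pdgfrb*, the receptors of platelet-derived growth factors, were at 0.06, 0.06 and 0.11 FPKM and at 0.08, 0.08 and 0.09 FPKM. Their ligand genes *Pdgfa* (79.43, 88.32 and 73.25 FPKM) and *Pdgfb* (15.16, 19.12 and 11.19 FPKM) were far above them. *Csf1r*, the receptor of myeloid cells for CSF1 and IL34, had 0.01, 0.02 and 0.01 FPKM, and exons of a gene on the opposite strand covered 16.7% of its exon bases. *Csf1* was at 15.11, 15.77 and 14.26 FPKM and *Il34* at 1.79, 1.89 and 1.63 FPKM. *Flt3*, a receptor of blood progenitors, was at 0.

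The VEGF receptors are best known from endothelial cells. *Flt1* was at 0.02 FPKM in each replicate and *Kdr*, the main receptor of VEGFA, at 0.02, 0 and 0.02 FPKM. *Flt4*, the receptor of VEGFC in lymphatic vessels, was the highest of the 3 with 0.57, 0.61 and 0.35 FPKM. Of the 5 ligands, 4 were expressed, and *Vegfb* led with 107.66, 113.96 and 80 FPKM. *Vegfa* was at 9.86, 9.89 and 10.89 FPKM, *Pgf* at 4.87, 6.65 and 5.11 FPKM and *Vegfc* at 4.27, 3.76 and 3.77 FPKM. The neuropilins, coreceptors of VEGF and semaphorins, stood at 133 ± 3.7 FPKM for *Nrp2* and 35.9 ± 3.83 FPKM for *Nrp1*. The endothelial angiopoietin receptors *Tek* and *Tie1* were at 0, as was *Angpt1*, and no angiopoietin gene reached 1 FPKM.

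Agrin and its receptor complex act at the neuromuscular junction. *Agrn* was at 154.61, 174.66 and 106.48 FPKM, at rank 363 of all genes, whereas *Musk* was at 0 and its coreceptor *Lrp4* at 1.46, 1.43 and 1.33 FPKM. *Ret*, the receptor of the GDNF family, had 0.03, 0.03 and 0.01 FPKM. One of its 4 ligands was expressed, *Artn* with 6.83, 8.17 and 6.32 FPKM, and none of the 4 GFRA coreceptors reached 1 FPKM. *Gfra4* was the highest of these at 0.65 FPKM on average.

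Receptors of neural and other lineages were at or near 0. *Ntrk2* was at 0 and *Ntrk3* at 0, 0.01 and 0 FPKM, although the neurotrophin coreceptor *Ngfr* had 50.73, 60.23 and 39.05 FPKM. None of the 3 neurotrophin genes reached 1 FPKM. *Alk* and *Ros1* were at 0, and *Ltk*, a relative of *Alk*, was at 0.05, 0.03 and 0.04 FPKM. *Ptk7*, a catalytically inactive kinase that acts in WNT signalling and planar cell polarity, had 0.05, 0.07 and 0.07 FPKM. Since values were rounded to 2 decimals, a listing of 0 could hide up to 1.26 to 5 reads in replicate 4, depending on the length of the gene. The 9 receptors listed at 0 were therefore not detectable at this depth and rounding, rather than shown to be absent. With *Mst1r*, *Fgfr4* and *Ntrk3*, 12 receptors had a mean below the value of 3 reads.

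**Figure D3:**
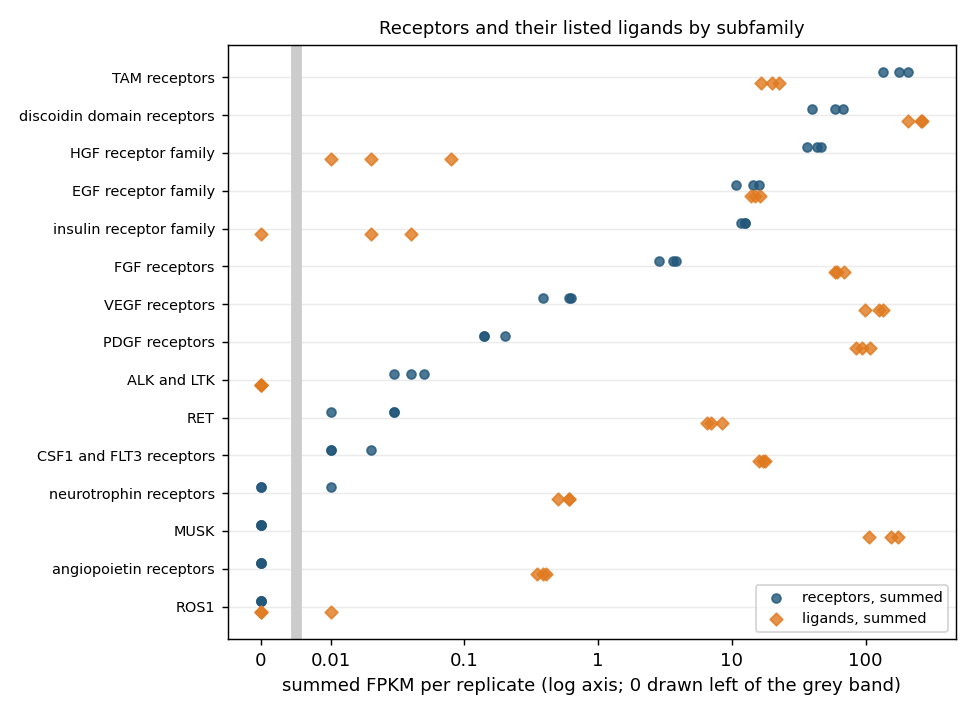
Summed FPKM of the receptors (circles) and of their listed ligands (diamonds) for 15 subfamilies, 1 point per replicate, on a log axis with 0 drawn left of the grey band. Ligands exceed receptors for the VEGF, PDGF, FGF, RET, CSF1, MUSK, discoidin, neurotrophin and angiopoietin rows. Receptors exceed ligands for the TAM, HGF and insulin rows. For the ALK row the receptors sum to only 0.03 to 0.05 FPKM, and the only ligand matched, *Fam150b*, is at 0. In the EGF row the sums are close, and the ROS1 row is at or near 0.

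Over all ligand genes, 17 of 66 had at least 1 FPKM in every replicate (25.8%), again beside 44.1% of all genes. The share was higher in the signalling machinery behind the receptors. Of 24 adaptors and proximal effectors, 20 were expressed (83.3%), led by *Shc1* at 79.6 ± 12.1 FPKM, *Dok1* at 58.4 ± 8.73 FPKM and *Pik3r2* at 34 ± 7.88 FPKM (SD, n = 3). The exceptions, named after their values were seen, were *Frs3*, *Dok7*, *Grb7* and *Grb10*, with means of 1.12, 0.293, 0.0267 and 0.00667 FPKM. Of 9 genes that restrain receptors, 8 were expressed, with *Ptprj* at 23.9 ± 1.86 FPKM, *Ptpn1* at 19.5 ± 3.85 FPKM and *Ptpn2* at 8.49 ± 2.47 FPKM on top. All 3 encode phosphatases, and the exception was *Lrig3*, at 0.76 FPKM. Of 8 proteases that process receptors or ligands, 5 were expressed, and the sheddase *Adam10* led with 120 ± 22.9 FPKM. Of 10 coreceptors, 4 were expressed, and the klotho gene *Kl* was at 0.

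The order of the 9 expressed receptors was *Axl*, *Ddr1*, *Met*, *Erbb2*, *Igf1r*, *Tyro3*, *Mertk*, *Insr* and *Fgfr1*. Of the 8 neighbouring pairs in this order, 5 had replicate ranges that did not overlap. *Ddr1* and *Met* overlapped, with *Ddr1* higher in replicates 1 and 3 and *Met* in replicate 4. *Mertk* also overlapped with *Tyro3* above it and with *Insr* below it, although *Mertk* was above *Insr* in 3 of 3 replicates. With the longest transcript as the gene length, 3 of the 8 pairs were apart. *Tyro3* then overlapped with *Igf1r*, and *Fgfr1* (4.59, 4.8 and 3.458 FPKM) with *Insr* (4.341, 4.072 and 5.075 FPKM). Below them, the ranges of *Flt4*, *Fgfr3*, *Fgfr2* and *Ddr2* overlapped one another.

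Among the 9 expressed receptors, the direction of the difference between replicates 3 and 4 went with base composition. For 2 of the 9 expressed receptors, *Axl* and *Ddr1*, the highest replicate was at least 1.5 times the lowest, and 18.9% of all genes at this level met the same limit. The number was 1 without replicate 3 and 0 without replicate 4. In 6 receptors (*Axl*, *Ddr1*, *Erbb2*, *Igf1r*, *Tyro3* and *Fgfr1*) replicate 3 was highest and replicate 4 lowest, and the GC content of their longest coding transcripts was 54.2% to 59.7%. In the other 3 (*Met*, *Mertk* and *Insr*) the order was the reverse, and the GC content was 45.5% to 48.1%. Of all genes at this level, 51.3% were higher in replicate 3 than in replicate 4. Replicate 1 lay between the others in 9 of 9 receptors. The share of all genes for which this held was not counted, so whether it is particular to the receptors is not known. The trend of replicate ratios with GC content over all expressed genes was also removed. With this, the ratio of highest to lowest replicate fell from 1.71 to 1.23 for *Ddr1* and from 1.57 to 1.34 for *Axl*, so part of the spread remained. No receptor then reached 1.5, but the share of all genes reaching 1.5 after this removal was not counted. *Ddr1* then had 57.2, 57.7 and 47 FPKM and *Met* 43, 40.8 and 41.6 FPKM, so that *Ddr1* was above *Met* in each replicate, while *Tyro3* and *Mertk* still crossed.

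**Figure D4:**
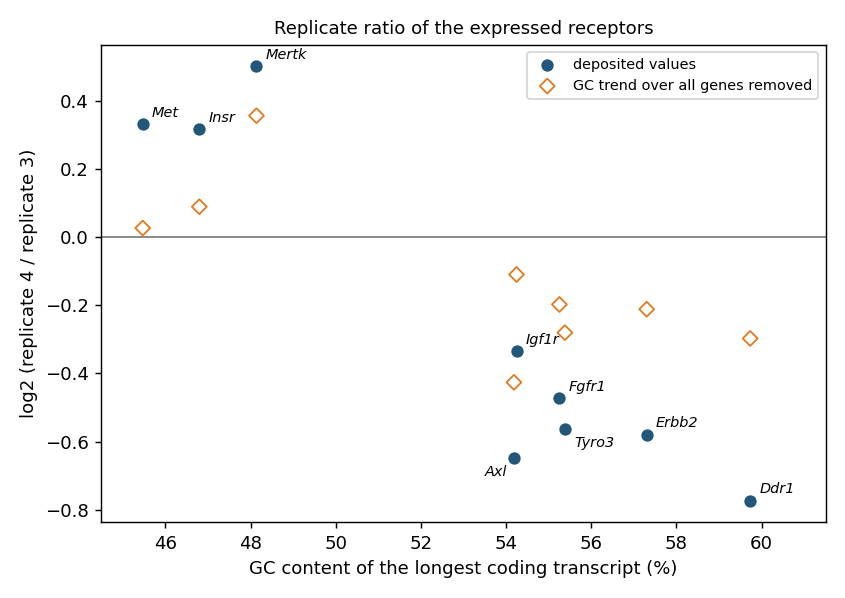
The log2 ratio of replicate 4 to replicate 3 (y axis) against transcript GC content in percent (x axis) for the 9 expressed receptors, as deposited (filled circles) and after removal of the GC trend over all genes (open diamonds). The 3 receptors of 45.5% to 48.1% GC lie above 0 and the 6 of 54.2% to 59.7% GC lie below, and removal of the trend brings the points closer to 0.

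In mm9, *Axl* lies on the minus strand of chromosome 7 from 26542292 to 26573724 and *Ddr1* on the minus strand of chromosome 17 from 35818512 to 35841566. *Met* lies on the plus strand of chromosome 6 from 17413800 to 17523980, and *Erbb2* on the plus strand of chromosome 11 from 98273784 to 98299030. The TAM receptors *Tyro3* and *Mertk* are both on the plus strand of chromosome 2, from 119623469 to 119643840 and from 128524692 to 128628630. *Ltk* neighbours *Tyro3*, on the minus strand from 119577056 to 119586167, and its mean level was 0.04 FPKM beside 5.04 FPKM for *Tyro3*. The values cover all exons of each gene and do not separate isoforms.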

How the data were processed

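RNA-seq was performed by the authors on 3 replicates of untreated melan-a cells (stranded mRNA kit, 3 lanes each). They trimmed 10 bases from each read, aligned to mm9 with STAR 2.3.0e, removed rRNA reads and counted with HTSeq 0.5.3p3 on Ensembl release 67. The FPKM values that the authors deposited carry TMM-scaled library sizes and 2 decimals. Their gene length and the strand setting of the counting are not given in the sources used here.

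Symbols, positions, joined exon lengths and GC content came from GENCODE M1 (Ensembl release 65, mm9), with 22324 of the 22698 genes. A second *Fgfr1* identifier of 761 bases, at 0 in every replicate, was left out, and the ligand *Fam150a* was not matched. The scaled library size was where FPKM times length of 34 to 48 short genes with 1 transcript came closest to whole reads. It was 53700000, 46900000 and 66200000 reads, with a mean distance of 0.032, 0.03 and 0.049 reads. Read numbers cover counting error only, and 3 reads were the floor.

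Expressed meant 1 FPKM or more in every replicate. No test was run, since there was 1 condition. Members and lists were chosen with earlier results of these data known. Named genes were all members, expressed ligands, and the 3 highest and any at 0 of the other lists. Others were named after their values were seen. One marker list is not reported here. The GC trend was fitted by lowess (fraction 0.3, pseudocount 0.1). It and the library size were tested on simulated data. Alternatives were other thresholds, floors and ratios, the mean or median over replicates, rescaled values, the GC trend removed, the longest transcript as length and each replicate left out. Python 3.11.15, numpy 2.4.6, pandas 2.3.3, statsmodels 0.14.6 and matplotlib 3.10.9 were used.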

Additional observations from a re-analysis of the deposited data

How the results depend on the processing

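No paired analysis was possible because the series has 1 group of samples. Of the settings tried for the 9 expressed receptors, only the threshold of 5 FPKM moved their number by more than 1. With it, 5 receptors, 11 ligands and 5 restraining genes counted as expressed. After rescaling, which changes the unit, the receptor sum was 792.3 and the count of expressed receptors 10, and with the longest transcript as the length the sum was 353.5 FPKM. The number of expressed receptors that varied was 0 with the GC trend removed, 0 at a ratio of 2 and 8 at the lowest ratio tried, and it ran from 0 to 2 with each replicate left out. It was 1 without replicate 3 and 0 without replicate 4. The share of the 3 highest receptors lay between 85.91% and 86.92% in all settings tried. The number of neighbouring pairs apart was 6 with the GC trend removed, 6 after rescaling and 3 with the longest transcript as the length, all chosen after seeing the data. Among single receptors, 33 of 34 means moved by no more than the SD with the GC trend removed. That trend was taken relative to each gene's own mean, so the removal leaves such means nearly unchanged by construction. Leaving out 1 of 3 replicates cannot move a mean by more than the SD, so that setting could not show a change of this size. The count listed at 0 was 10 without replicate 3. The longest transcript moved 7 means, *Fgfr1* to 4.283 FPKM. The rounding of the files limits all receptors under 0.1 FPKM, and 12 were below the value of 3 reads, or 16 below that of 10 reads.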

Other observations

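In the annotation used for positions, *Fgfr2* spans 137305965 to 140315033 on chromosome 7 with 29 transcripts, and its joined exons of 7796 bases are longer than the longest transcript of 4429 bases. With that transcript as the length its mean would be 0.6161 FPKM in place of 0.35. For *Ddr2* the ratio between replicates went the same way as for *Met*, with a log2 ratio of replicate 4 to 3 of 0.91 at a GC content of 44.8%, and for *Flt4* the opposite way, with -0.80 at 56.5%.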
